A study of Mus musculus with 12 samples.

Results

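Transcripts that mark B cells were followed through RNA sequencing of cultured mouse CD4+ T cells. The 5 genes were Ighm, Cd79a, Cd79b, Ms4a1 and Pax5, taken by name as established B cell markers from the 38924 gene IDs that were counted. All 5 had at least 238 reads in every library and passed the filter on low counts, which kept 13811 genes. The libraries came from 4 groups of 3, WT or STINGgt/gt T cells cultured with DMSO or with CMA.

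WT was wildtype C57BL/6. STINGgt/gt mice (Goldenticket, STING KO in the sample labels) were of the same C57BL/6 background and carry a missense mutation of Tmem173 that leaves no functional STING, the adaptor of cytosolic DNA sensing. The mice were 8 to 12 weeks old. In all 4 groups naive CD4+ T cells were sorted from the spleen, stimulated through CD3 and CD28 for 2 days and left without stimulation for 1 day. DMSO (the solvent) or CMA (10-carboxymethyl-9-acridanone, a small molecule agonist of mouse STING) was then given for 16 h. The libraries of a group are described as biological replicates, without saying whether these were separate animals or separate cultures, and p-values measure the spread between them.

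The libraries had 27414450 to 43784910 reads on genes (median 36418677). All 13 genes of a T cell identity list were detected in every library, and their summed level was 3839 to 4250 CPM, where CPM is the count scaled to the library size. Cd4 had group means of 435 to 540 CPM. The cells therefore carried the transcripts of their label, with the B cell transcripts below in addition. Tmem173 itself had group means of 186 CPM in WT with DMSO, 305 in WT with CMA, 173 in STINGgt/gt with DMSO and 176 in STINGgt/gt with CMA, and a missense mutation need not lower its mRNA, so this gene did not check the genotype labels.

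The B cell receptor is a membrane immunoglobulin bound to a heterodimer of CD79A and CD79B, which passes the signal into the cell. The cytoplasmic tail of each CD79 chain holds an immunoreceptor tyrosine-based activation motif, whose tyrosines are phosphorylated by Lyn and bind Syk. Pax5 maintains the identity of B cells and sustains the transcription of Cd79a. B cells are the most frequent lymphocytes of the mouse spleen, the organ from which these T cells were sorted.

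Ighm (ENSMUSG00000076617, chr12:113418558-113422730, minus strand of GRCm38) encodes the constant region of the IgM heavy chain, and its count cannot separate rearranged from unrearranged transcripts. Cd79a (ENSMUSG00000003379, chr7:24897381-24902197, plus strand) and Cd79b (ENSMUSG00000040592, chr11:106311341-106314762, minus strand) encode the signalling chains. Ms4a1 (ENSMUSG00000024673, chr19:11249675-11266241, minus strand) encodes CD20, a membrane protein of mature B cells. Pax5 (ENSMUSG00000014030, chr4:44524757-44710487, minus strand) encodes the transcription factor. Positions are those of GENCODE M21, and reads were counted over all exons of each gene. The deposited count summaries do not state a strand setting, but the annotated genes that overlap Ms4a1 and Pax5 and were counted, 4930526L06Rik, Mir5120 and Gm12462, had at most 1 read in any library.

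The coding bases of the activation motif are shown because they are the part of the CD79 chains that carries the signal. They were read from the GENCODE M21 transcripts of both genes, coding bases 544 to 588 of Cd79a and 763 to 807 of Cd79b, with the codons of the paired tyrosines in capitals:
Cd79a: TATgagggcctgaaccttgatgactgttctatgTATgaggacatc
Cd79b: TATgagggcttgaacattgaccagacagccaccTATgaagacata
Of the 45 bases, 31 were the same in the 2 genes (68.9%).

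Promoters were available from RefSeq (GRCm38.p6) for Cd79a and Pax5, both among the transcripts that were higher with CMA in WT, and are shown from 250 bases before to 50 bases after the gene start of RefSeq. That start is 24897497 for Cd79a and 44710694 for Pax5, and differs from the GENCODE M21 start given above. Matches to the E-box, CANNTG, on either strand are in capitals. The Cd79a promoter (chr7:24897247-24897546, plus strand) had 2 matches and the Pax5 promoter (chr4:44710645-44710944, minus strand) had 1:
Cd79a: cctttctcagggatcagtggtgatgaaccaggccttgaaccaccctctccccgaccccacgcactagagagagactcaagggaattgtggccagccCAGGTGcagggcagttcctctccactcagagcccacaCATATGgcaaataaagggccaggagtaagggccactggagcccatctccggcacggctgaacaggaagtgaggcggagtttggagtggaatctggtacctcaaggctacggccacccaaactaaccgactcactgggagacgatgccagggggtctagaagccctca
Pax5: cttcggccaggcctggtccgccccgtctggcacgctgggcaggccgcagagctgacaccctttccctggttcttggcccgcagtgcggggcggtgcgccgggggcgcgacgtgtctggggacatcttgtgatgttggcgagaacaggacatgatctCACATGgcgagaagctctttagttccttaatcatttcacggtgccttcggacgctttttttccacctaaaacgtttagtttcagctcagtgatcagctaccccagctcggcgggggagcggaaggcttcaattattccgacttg
Of 32851 promoters of this length, 72.3% held an E-box match. Neither promoter held the letters of the octamer (ATGCAAAT, in 1.74% of all promoters), of an EBF site (CCCNNGGG, 13.7%), of an Ets site (CCGGAA, 14.9%) or of a TATA box (TATAAA, 13.6%), searched on both strands. These are matches of letters in a window and no measurement of binding. Only the letters given were searched, so a site that deviates from them would be missed. The lack of a match does not show the lack of a site.

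Ighm was the most abundant of the 5 transcripts on every scale. Per kilobase of exon its mean level in WT with DMSO was 262 ± 18.1 CPM per kb (SD, n = 3), against 23.2 ± 0.776 for Cd79a, 22.4 ± 0.935 for Cd79b, 4.31 ± 0.249 for Ms4a1 and 1.60 ± 0.286 for Pax5. Cd79a and Cd79b were neighbours in this order whose libraries overlapped in that group. The exon length used for Ms4a1 and Pax5 joins all annotated exons, so their values per kb are low estimates where shorter isoforms prevail. Set against Cd3e, a chain of the T cell receptor complex, the mean level per kb of Cd79a was 37.4% in WT with DMSO, 71.3% in WT with CMA, 16.5% in STINGgt/gt with DMSO and 15.4% in STINGgt/gt with CMA. In WT the level of Cd3e itself fell by 0.66 in log2 units between DMSO and CMA (edgeR, adjusted p = 1.72e-09), so the second of these shares has both terms moving. The exon length used for Cd3e, 4080 bases against 1457 for Cd79a, also joins all annotated exons. All 4 shares are therefore high estimates where shorter isoforms of Cd3e prevail. Not divided by length, the mean level in WT with DMSO was 33.8 CPM for Cd79a and 252 CPM for Cd3e.

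**Figure D1:**
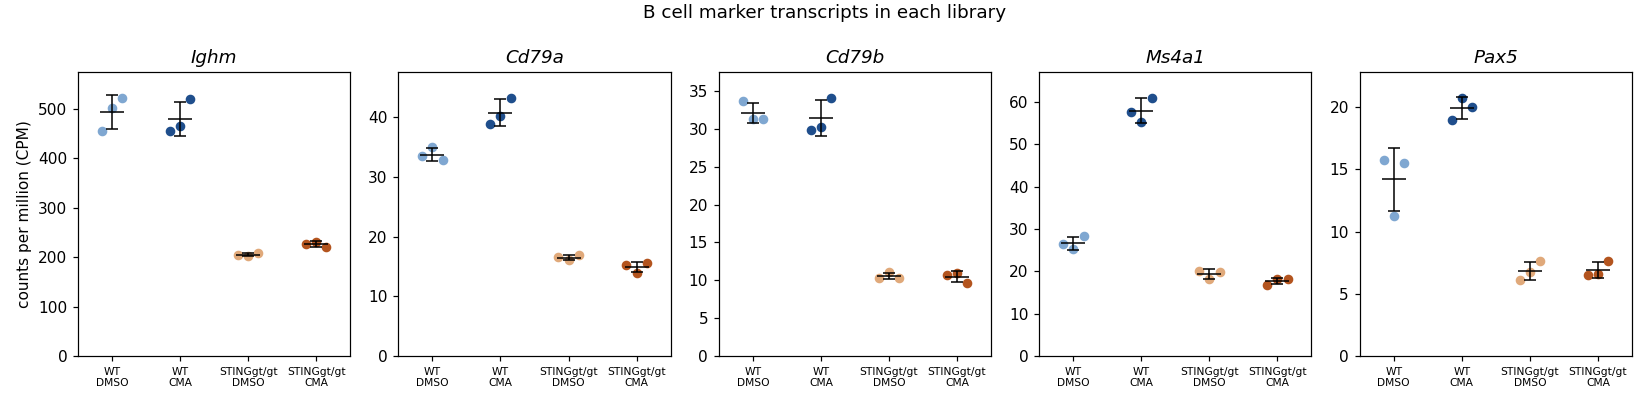
Level of each transcript (vertical axis, CPM, from 0) in the 4 groups. Each point is a library, the wide bar is the mean and the error bars are 1 SD (n = 3). All WT libraries lie above all STINGgt/gt libraries in each panel, and the CMA libraries of WT stand apart from the DMSO libraries for Cd79a, Ms4a1 and Pax5.

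The first comparison asked how the genotypes differed without the agonist. All 5 transcripts were higher in WT than in STINGgt/gt T cells with DMSO, by 1.38-fold (Ms4a1) to 3.04-fold (Cd79b), with p-values from edgeR's quasi-likelihood model, adjusted over the 13811 genes tested by the Benjamini-Hochberg procedure. Of all genes tested, 22.9% were higher in WT in this comparison. The median log2 difference of the 5 was 1.06, beside -0.0018 over all genes. In these bulk samples fewer cells of a type and less RNA per cell cannot be told apart.

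For the heavy chain, Ighm had 456, 502 and 523 CPM in the WT libraries with DMSO and 204, 202 and 208 in those of STINGgt/gt. Every WT library was above every STINGgt/gt library. The log2 difference was 1.27 (standard error 0.056, adjusted p = 3.62e-11).

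The signalling chains did not differ to the same degree. Cd79a had 33.5, 34.99 and 32.8 CPM in WT and 16.5, 16.0 and 16.9 in STINGgt/gt, a log2 difference of 1.03 (standard error 0.059, adjusted p = 7.11e-10). Cd79b had 33.6, 31.3 and 31.3 CPM in WT and 10.3, 11.0 and 10.3 in STINGgt/gt, a log2 difference of 1.60 (standard error 0.069, adjusted p = 2.75e-11). The 2 partners of the heterodimer were thus at nearly the same level in WT and at different levels in STINGgt/gt. The 95% interval of the difference was 0.91 to 1.16 for Cd79a and 1.46 to 1.75 for Cd79b, and these do not meet.

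Ms4a1 had the smallest difference, with 26.5, 25.2 and 28.2 CPM in WT and 20.2, 18.1 and 19.9 in STINGgt/gt (log2 difference 0.46, standard error 0.063, adjusted p = 1.88e-05). Pax5 had 15.8, 11.3 and 15.5 CPM in WT and 6.13, 6.79 and 7.63 in STINGgt/gt (log2 difference 1.06, standard error 0.117, adjusted p = 1.96e-06). The second WT library was low for Pax5 but still above every STINGgt/gt library. For each of the 5 genes the groups did not overlap, and the exact two-sided permutation test gave p = 0.1, the smallest that 3 against 3 libraries allow. The share of all genes without overlap was not counted, so this does not set the 5 apart.

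Ratios between members within a library do not depend on the scaling of the libraries. Taken per kb, Ms4a1 was at 0.183, 0.186 and 0.209 of Cd79b in the WT libraries with DMSO and at 0.455, 0.380 and 0.444 in those of STINGgt/gt. Cd79a was at 0.979 to 1.097 of Cd79b in WT and at 1.43 to 1.61 in STINGgt/gt. Ighm was at 10.3 to 12.7 times Cd79b in WT and at 13.9 to 15.3 times in STINGgt/gt. The libraries of the genotypes did not overlap in any of these 3 ratios, so the B cell transcripts were not lower in STINGgt/gt by 1 common factor.

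With CMA, 3 of the 5 transcripts rose in WT T cells and none fell, by edgeR's test. Among all genes 33.0% rose in this comparison, so the count by itself does not set the 5 apart. The size differed between members. Ms4a1 rose by 2.17-fold, Pax5 by 1.40-fold and Cd79a by 1.21-fold, and the levels of Cd79b and Ighm did not pass the test.

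Ms4a1 went from 26.5, 25.2 and 28.2 CPM with DMSO to 57.6, 55.2 and 61.0 with CMA. Every CMA library was above every DMSO library. This was a log2 fold change of 1.12 with a standard error of 0.059 (adjusted p = 4.90e-11). Pax5 went from 15.8, 11.3 and 15.5 CPM to 19.0, 20.8 and 20.01 (log2 fold change 0.49, standard error 0.105, adjusted p = 0.000615). Without the low second DMSO library its log2 fold change was 0.34 (adjusted p = 0.000769).

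Cd79a had 38.9, 40.2 and 43.3 CPM with CMA, all above its 3 DMSO libraries (log2 fold change 0.27, standard error 0.055, adjusted p = 0.000308). Its partner Cd79b had 29.9, 30.2 and 34.1 CPM with CMA, which overlapped the DMSO libraries. The log2 fold change of Cd79b was -0.03, with a 95% interval of -0.16 to 0.10 (adjusted p = 0.687). Ighm, with 456, 465 and 519 CPM, also overlapped its DMSO libraries, at -0.04 with an interval of -0.16 to 0.08 (adjusted p = 0.527). Scaled to the summed Cd3d, Cd3e, Cd3g and Cd247 counts in place of all genes, the CMA effects in WT were higher by 0.165 on the log2 scale, which put Cd79a at 0.44, Cd79b at 0.13 and Ighm at 0.13, with the same 3 transcripts past the threshold.

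In the ratios per kb, Ms4a1 reached 0.446, 0.422 and 0.413 of Cd79b in the WT libraries with CMA, up from 0.183, 0.186 and 0.209 with DMSO. These CMA values lay within the range of the STINGgt/gt libraries with DMSO, 0.380 to 0.455. Pax5 went from 0.0714 ± 0.0117 of Cd79b to 0.103 ± 0.00807 (SD, n = 3), and in STINGgt/gt it stood at 0.105 ± 0.0123 with DMSO. Ighm stayed at 11.7 ± 1.26 times Cd79b with DMSO and 11.6 ± 0.0547 times with CMA. The first and second of these ratios did not overlap between treatments in WT (exact two-sided permutation p = 0.1 for each, the smallest possible), and the last did (exact permutation p = 1).

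**Figure D2:**
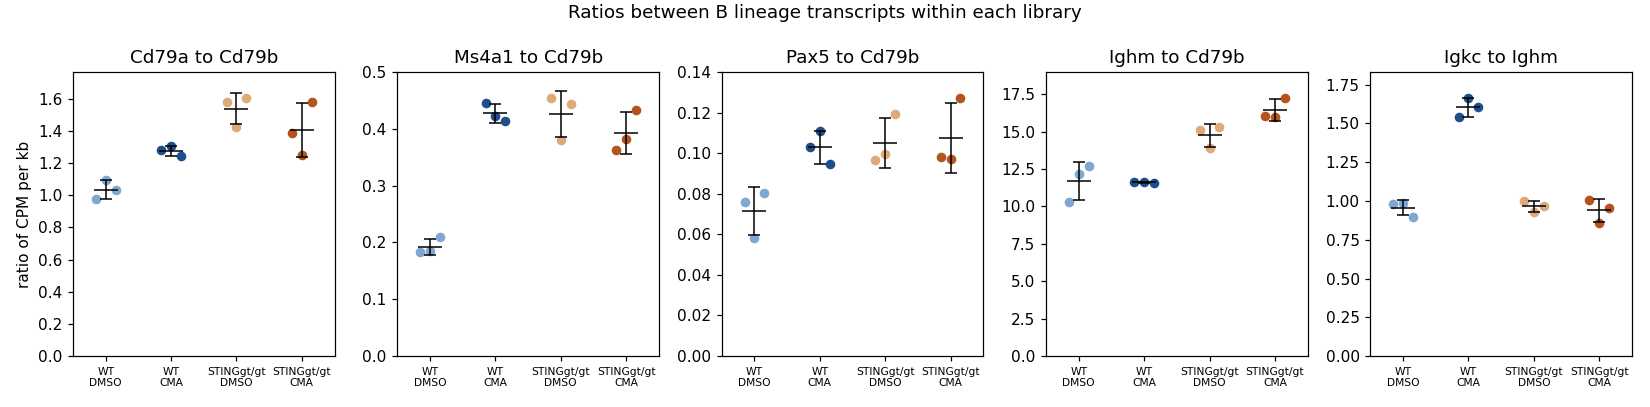
Ratios of CPM per kb between B lineage transcripts (vertical axis, from 0) within each library, by group, with mean and 1 SD (n = 3). In WT the CMA libraries are above the DMSO libraries for Ms4a1 to Cd79b and Igkc to Ighm, while Ighm to Cd79b overlaps.

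In STINGgt/gt T cells edgeR called 0 of the 5 transcripts between CMA and DMSO, and 1.32% of all genes. At an unadjusted p under 0.05 there were 2, Cd79a and Ighm, beside 1790 of the 13811 genes tested. DESeq2 and limma-voom called 0 of the 5 as well, beside 327 and 187 of all genes. Cd79a had 16.5, 16.0 and 16.9 CPM with DMSO and 15.2, 13.98 and 15.5 with CMA, a log2 fold change of -0.15 with a 95% interval of -0.28 to -0.02 (adjusted p = 0.318). Ighm had 204, 202 and 208 CPM with DMSO and 227, 232 and 220 with CMA, a log2 fold change of 0.14 with an interval of 0.03 to 0.26 (adjusted p = 0.268). The libraries of the 2 treatments did not overlap for these genes, in opposite directions (exact two-sided permutation p = 0.1 for each, the smallest possible). How many of all genes showed such a separation was not counted, so it does not set these 2 apart.

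Ms4a1, which had the largest CMA effect of the 5 in WT, had 16.9, 18.1 and 18.1 CPM with CMA in STINGgt/gt and a log2 fold change of -0.13 (95% interval -0.26 to 0.01, adjusted p = 0.417). Cd79b with 10.8, 11.0 and 9.67 CPM and Pax5 with 6.52, 6.60 and 7.61 CPM overlapped their DMSO libraries, at log2 fold changes of -0.01 and 0.02. With only the 6 STINGgt/gt libraries in the fit, Ighm passed the threshold (log2 fold change 0.14, adjusted p = 0.0321, edgeR), so its call depends on which libraries enter the fit.

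The difference of the CMA effect between the genotypes was tested as an interaction in the same edgeR model. It was positive for 3 of the 5 transcripts, Ms4a1 (1.25 on the log2 scale, standard error 0.087, adjusted p = 3.96e-09), Cd79a (0.42, standard error 0.082, adjusted p = 0.000369) and Pax5 (0.47, standard error 0.163, adjusted p = 0.0214). Of all genes 27.2% had a more positive effect in WT. Cd79b had a difference of -0.02 (95% interval -0.23 to 0.19, adjusted p = 0.864).

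For Ighm the difference was -0.18 (95% interval -0.35 to -0.02, adjusted p = 0.0534), just outside the threshold. Its side of the threshold depended on the setting, with adjusted p from 0.0117 to 0.963 over the alternatives. Scaled to the summed Cd3d, Cd3e, Cd3g and Cd247 counts, the difference was -0.0051 (adjusted p = 0.963). It passed with library-size scaling (adjusted p = 0.0239), with the replicate block (0.0120), without WT DMSO replicate 1 (0.0186) and without WT CMA replicate 3 (0.0117), and did not pass with the block by library name (0.0721), with DESeq2 (0.0968) or with a minimum of 10 counts (0.113). The call for Pax5 was lost without STINGgt/gt DMSO replicate 3 (adjusted p = 0.0677) and without STINGgt/gt CMA replicate 1 (0.0506).

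With CMA in both genotypes, all 5 transcripts were again higher in WT, where 37.0% of all genes were higher. The fold differences were 3.27 for Ms4a1, 2.99 for Cd79b, 2.88 for Pax5, 2.74 for Cd79a and 2.12 for Ighm, with log2 differences of 1.08 to 1.71 and adjusted p of at most 2.38e-09 (edgeR). The order of the members had turned round for Ms4a1, which had the smallest genotype difference with DMSO and the largest with CMA. This comparison shares its libraries with those above and is no separate evidence.

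**Figure D3:**
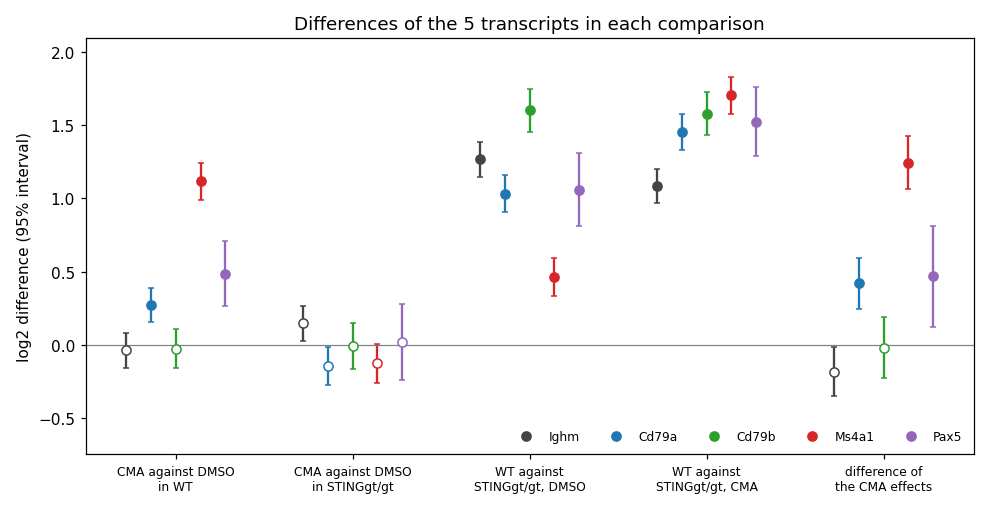
Log2 difference of each transcript (vertical axis) in the 5 comparisons, with 95% intervals from edgeR, n = 3 libraries per group. Filled points passed an adjusted p of 0.05. The genotype differences are all above 0, the CMA effects in WT separate Ms4a1 from the others, and no point is filled for CMA in STINGgt/gt.

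Other genes of the B cell receptor pathway were read from a list of 16. With DMSO, 14 were higher in WT than in STINGgt/gt and 0 lower, beside 22.9% and 19.8% of all genes, with a median log2 difference of 1.21. Pik3ap1, an adaptor that links the receptor to PI3 kinase, differed by 0.91. Ptpn6 (SHP-1) and Prkcb (protein kinase C beta), which T cells also express, differed by -0.08 (adjusted p = 0.131) and 0.13 (adjusted p = 0.249).

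With CMA in WT, 3 of the 16 were higher and 7 lower, beside 33.0% and 37.4% of all genes, so the share that was lower was near that of all genes. Pik3ap1 fell by 0.48 (adjusted p = 4.45e-07) and Prkcb fell by 0.35 (adjusted p = 0.00215). In STINGgt/gt edgeR called 0 of the 16 between CMA and DMSO, beside 1.32% of all genes, so this count does not set the list apart.

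Among the B cell surface proteins, 11 of 15 tested were higher and 1 lower in WT with DMSO, beside 22.9% and 19.8% of all genes. With CMA in WT, 7 rose and 4 fell, beside 33.0% and 37.4% of all genes. Tnfrsf13b encodes TACI, a receptor for the survival factors BAFF and APRIL, and went in WT from 51.5 to 235 CPM (log2 fold change 2.19, adjusted p = 2.49e-14), beside 42.6 and 39.9 in STINGgt/gt. Cxcr5, the receptor that guides B cells and follicular helper T cells into follicles, went from 65.8 to 114 CPM (log2 fold change 0.80, adjusted p = 1.25e-10). Cd24a and Cd37 had log2 fold changes of 0.01 (adjusted p = 0.909) and 0.09 (adjusted p = 0.260).

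All 8 immunoglobulin constant regions tested were higher in WT than in STINGgt/gt with DMSO, beside 22.9% of all genes (median log2 difference 1.39). In WT, 3 of the 8 were higher with CMA and 5 lower, beside 33.0% and 37.4% of all genes. Igkc, the kappa light chain, rose from 133 to 217 CPM (log2 fold change 0.71, adjusted p = 4.86e-08) and Iglc2, a lambda light chain, rose by 0.22 (adjusted p = 0.0397). Ighg2c and Ighg2b, constant regions of switched IgG heavy chains, fell by 1.08 (adjusted p = 1.56e-10) and by 0.62 (adjusted p = 7.68e-07). The light chain therefore rose against the heavy chain, as Igkc per kb went from 0.979, 0.989 and 0.900 of Ighm with DMSO to 1.54, 1.67 and 1.60 with CMA. In STINGgt/gt it was at 0.965 ± 0.0357 with DMSO and 0.940 ± 0.0754 with CMA (SD, n = 3). In STINGgt/gt edgeR called 0 of the 8 between CMA and DMSO, beside 1.32% of all genes, so this count does not set the constant regions apart.

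Of 12 B cell transcription factors, 8 were higher in WT and 2 lower with DMSO, beside the same shares of 22.9% and 19.8%. With CMA in WT 7 rose and 3 fell, beside 33.0% and 37.4% of all genes. Pou2af1, the octamer coactivator OCA-B, differed most between the genotypes among the 4 named here, at 184 against 57.3 CPM with DMSO, and fell with CMA in WT by 0.42 (adjusted p = 7.60e-06). Irf8 was lower in WT with DMSO (549 against 688 CPM) and fell by 0.56 with CMA (adjusted p = 6.67e-09). Bach2 rose by 0.45 (adjusted p = 3.59e-05) and Tcf3 had a log2 fold change of -0.02 (adjusted p = 0.681). Activated T cells express Irf8, Bach2 and Tcf3 themselves. In STINGgt/gt edgeR called 2 of the 12 higher with CMA, beside 0.398% of all genes. They were Irf8 and Bcl6, the latter named here after its value was seen.

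Plasma cell and precursor genes were mostly low. Of 7 plasma cell genes tested, 5 were higher in WT with DMSO, beside 22.9% of all genes. With CMA in WT 1 rose and 4 fell, beside 33.0% and 37.4% of all genes. Prdm1 (Blimp-1) went from 12.2 to 5.45 CPM with CMA (log2 fold change -1.19, adjusted p = 3.85e-06), and Xbp1 fell by 0.63. Mzb1, a chaperone of immunoglobulin assembly, had 29.2 CPM in WT and 8.32 in STINGgt/gt with DMSO. Irf4, which activated T cells express as well, had group means of 1046 to 1115 CPM. Among the precursor genes Vpreb2 and Rag2 had no read in any library and Rag1 and Igll1 almost none. Of 3 tested, 2 were higher and 0 lower in WT with DMSO, beside 22.9% and 19.8% of all genes. With CMA in WT 0 rose and 2 fell, beside 33.0% and 37.4%. Vpreb3 had 1.34 CPM in WT and 0.319 in STINGgt/gt with DMSO, and fell with CMA in WT by 0.92 (edgeR, adjusted p = 0.00214). Vpreb1 had group means of 0.228 to 0.417 CPM and passed in neither comparison. Dntt, terminal transferase, went from 26.9 to 1.70 CPM with CMA in WT (log2 fold change -3.97, adjusted p = 9.60e-15). It fell in STINGgt/gt as well, from 16.3 to 9.94 CPM (log2 fold change -0.71, adjusted p = 0.000581).

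**Figure D4:**
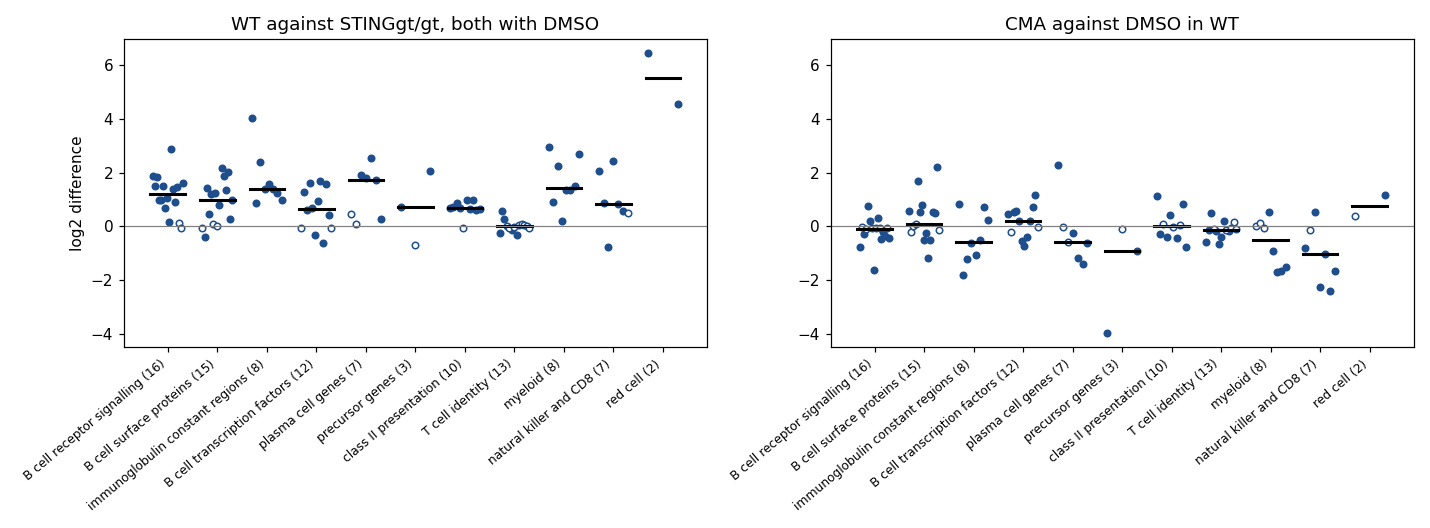
Log2 differences (vertical axis) of the genes tested in each list, with the number of genes in brackets, for WT against STINGgt/gt with DMSO (left) and CMA against DMSO in WT (right). Filled points passed an adjusted p of 0.05 in edgeR and bars are list medians. Most B lineage genes are above 0 on the left, and the same lists spread to both sides of 0 on the right.

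Class II presentation genes, which B cells express along with other antigen-presenting cells, were higher in WT with DMSO for 9 of 10 and lower for 0, beside 22.9% and 19.8% of all genes, with a summed level of 595 to 669 CPM in WT and 385 to 401 in STINGgt/gt. Cd74, the invariant chain, had 274 and 169 CPM, and CMA raised it to 592 CPM in WT (log2 fold change 1.11, adjusted p = 7.26e-12). H2-Ab1 fell with CMA by 0.41, and H2-Aa and H2-Eb1 had log2 fold changes of 0.09 and 0.06 that did not pass.

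Markers of other cell types differed between the genotypes too, where 22.9% of all genes were higher in WT and 19.8% lower. Of the 10 myeloid markers 8 could be tested and 8 were higher in WT with DMSO. Their summed level was 55.9 to 62.9 CPM in WT and 41.1 to 43.8 in STINGgt/gt, of which Cst3 alone had 38.6 and 33.5, while the macrophage marker Adgre1 had a mean under 0.1 CPM in each group. Natural killer and CD8 genes were higher for 5 of 7 and lower for 1, with sums of 105 to 124.5 and 59.9 to 66.9 CPM. The 4 red cell genes summed to 1.15 to 1.44 CPM in WT and 0.0274 to 0.0773 in STINGgt/gt with DMSO.

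Of the 13 T cell identity genes 2 were higher and 3 lower in WT with DMSO, near the 22.9% and 19.8% of all genes, at a summed level of 4091 to 4250 CPM in WT and 4104 to 4151 in STINGgt/gt, which overlap. Between CMA and DMSO in WT, 1 of the 8 myeloid genes was higher and 4 were lower, beside 33.0% and 37.4% of all genes, with a median log2 fold change of -0.50. The higher one was Cst3, which went from 38.6 to 55.7 CPM, while Lyz2 went from 3.25 to 1.16 CPM and Itgam from 3.31 to 1.02 CPM. The summed myeloid level was 69.3 to 74.2 CPM with CMA against 55.9 to 62.9 with DMSO, but without Cst3, a sum taken after its values were seen, the mean went from 20.7 CPM with DMSO to 15.96 with CMA. In the same comparison the summed level of natural killer and CD8 genes was 70.6 to 76.6 against 105 to 124.5 CPM, and that of the T cell identity genes was 3839 to 3895 against 4091 to 4250. The part of other cells in the B cell results was not tested, and a sort of naive CD4+ T cells preceded the culture.

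The genes whose pattern over the 12 libraries was most like the 5 together were named by the Pearson correlation of log2 CPM with the mean of the 5 standardised transcripts. They were Satb1 (r = 0.998), Ebf1 (0.997), Chst11 (0.996), Cysltr2 (0.996), Wdfy1 (0.996), Ptgs2 (0.995), Lamp2 (0.995), Lamc1 (0.995), Napsa (0.994) and Cytip (0.994), out of 13806 genes. Ebf1, a factor that acts with Pax5 in the B lineage, had 22.6 CPM in WT with DMSO, 34.0 in WT with CMA, 7.47 in STINGgt/gt with DMSO and 7.22 in STINGgt/gt with CMA. Satb1, which is abundant in T cells, had 958, 1295, 418 and 414 CPM in the same order, so the pattern is not particular to genes of B cells. The libraries share 2 genotypes and 2 treatments, so they are not independent points.

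Once each group mean was subtracted, the members no longer moved closely together. Their pairwise correlations over 12 libraries went from 0.779 to 0.990 down to between -0.156 and 0.437. The genes most like them within groups were Gsap (r = 0.940), Dlg3 (0.936), Ralgps2 (0.932), Shtn1 (0.923), Tgfbr2 (0.910), Chd3 (0.897), F2r (0.892), Uspl1 (0.891), Fam26f (0.880) and Tgtp2 (0.879). None of these is on the lists of B cell genes read here. They are the highest of 13806 genes over few libraries, and no p was computed, so the ranking does not show a link to the members. Shtn1 had a mean of only 14.5 reads per library.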

How the data were processed

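For 12 libraries the authors deposited unnormalised HTSeq counts, 1 value per Ensembl gene, and a log2 table of 11921 genes, which equals the log2 of the count plus 0.5 with 1 offset per library. The submitters' processing notes name cutadapt 1.3, STAR 2.4.0f1, HTSeq 0.6.1, RSEM 1.2.16 and GRCm38. The dose of CMA was 125 μg/ml. Tally lines that name no gene were left out: not unique alignments (27.8% to 30.3% of entries), reads outside genes (4.86% to 7.16%) and ambiguous reads (0.594% to 0.635%). Gene symbols of 11921 IDs were those of the deposited table, 25762 were looked up in a reference list, and 1241 IDs had none.

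Counts were tested with edgeR 4.0.16 (R 4.3.3), using glmQLFit and glmQLFTest, TMM scaling and filterByExpr, with the 4 groups in 1 model and no block. The threshold was a Benjamini-Hochberg adjusted p of 0.05 over 13811 genes. CPM are counts over the TMM-scaled library size, and log2 CPM used a prior count of 2. The models were tested on simulated data. Replicates of a group differed by more than sampling noise (chi-square per degree of freedom 2.63 to 29.9). With 3 libraries per group, exact permutation tests cannot give a p under 0.1. Alternatives were library-size and T cell receptor scaling, DESeq2 1.42.0, limma-voom and limma 3.58.1 on the log2 table, other filters and thresholds, fits of the compared groups, replicate blocks and leaving out each library. The table does not list Ighm, which that alternative leaves out.

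The 5 members and the lists were chosen with earlier results of these data known. Named genes were the members, up to 4 per list with the highest mean count plus defining markers at 0, and the 10 most alike over all libraries and within groups. The list names Fcmr, Ighd, Iglc1 and Iglc3 were not matched to a counted ID and were not analysed here, and 1 named gene is not reported here.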

Additional observations from a re-analysis of the deposited data

Results flagged for a closer look

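For the following genes the genotypes differed in their CMA effect by edgeR's interaction test (adjusted p under 0.05, values are the WT effect minus the STINGgt/gt effect on the log2 scale). Among the 5 B cell markers the difference was 1.25 for Ms4a1, 0.47 for Pax5 and 0.42 for Cd79a. For each of the 3 all CMA libraries of WT were above all DMSO libraries of WT, but the share of all genes with this separation was not counted.

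In the B cell receptor pathway the difference was -0.39 for Pik3ap1 and -0.41 for Prkcb. Of the surface proteins it was 2.29 for Tnfrsf13b and 0.80 for Cxcr5. The constant regions gave 0.60 for Igkc, -0.89 for Ighg2b and -1.18 for Ighg2c. The transcription factors gave -0.65 for Pou2af1, -0.77 for Irf8 and 0.26 for Bach2 (adjusted p = 0.0409). Among plasma cell and precursor genes the difference was -1.24 for Prdm1, -0.42 for Xbp1 and -3.27 for Dntt.

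Of the class II genes, which B cells also express, it was 1.13 for Cd74 and 0.23 for H2-Aa. It was 0.24 for Cd4, -0.15 for Lck and -0.24 for Cd28 among T cell genes. The myeloid genes gave -1.32 for Lyz2, -1.41 for Itgam and 0.53 for Cst3. The natural killer and CD8 genes gave -0.84 for Cd8a, -1.97 for Gzma and 0.36 for Eomes. No explanation was tested for any of these differences.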

How the results depend on the processing

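In the alternatives run, the 3 transcripts called with CMA in WT stayed 3 in number, and each genotype comparison kept all members it could test. Of 545 single values, 510 kept their direction and their side of the threshold. The log2 fold changes that turned in sign were not called in any setting. For Cd79b with CMA in WT (-0.03) they were 0.13 with T cell receptor scaling, 0.00048 with DESeq2, 0.011 on the authors' log2 table, 0.014 with a minimum of 10 counts per library, 0.0027 with only the groups compared, and -0.092 to 0.014 with 1 library left out. For Ighm they were 0.13 with T cell receptor scaling, 0.0031 with at least 10 counts, and -0.10 to 0.013 with 1 library left out. For the interaction of Cd79b they were 0.16 with T cell receptor scaling, 0.0041 with DESeq2, 0.027 on the authors' table, 0.014 with at least 10 counts, and -0.084 to 0.026 with 1 library left out. In STINGgt/gt, Cd79b gave 0.0017 without a filter, 1.7e-05 with at least 10 counts and -0.048 to 0.044 with 1 library left out, and Pax5 -0.060 to 0.10.

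In STINGgt/gt 1 member was called with only the groups compared, Ighm. All genes called there, 182, were 327 with DESeq2, 433 without a filter, 656 with only the groups compared, 55 at an adjusted p under 0.01 and 56 to 458 with 1 library left out. The cause was not tested, beyond the stricter threshold itself.

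The deviations from the group means of DMSO and CMA libraries with the same number correlated at 0.00195, 0.104 and 0.132 (WT) and at 0.0634, 0.0597 and 0.0585 (STINGgt/gt). These libraries were not taken as pairs, although over genes with a mean of at least 1 CPM 5 of 6 passed 0.1. Over those genes, libraries with different numbers correlated at -0.273 to 0.0986 in WT and at -0.184 to 0.0237 in STINGgt/gt. Low correlations do not show that the libraries were unpaired. The replicate block gave 363 genes in STINGgt/gt and 43 by library name, and it brought Ighm past the threshold in the interaction (adjusted p = 0.0120, edgeR), but not by library name (0.0721). It was fitted within genotype and could not be applied between genotypes. Depth limits Pax5 most, with 238 to 681 reads per library.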
